A study of Drosophila melanogaster with 21 samples.

Results

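The early response to sugar and odor training was measured in single heads of female Drosophila melanogaster, by comparing heads collected 1 h after training with heads of flies that were starved and not trained. The heads were chosen by their labels, and they were 11 of the 21 in the series: 6 heads labelled as starved, trained with sucrose and taken 1 h later, and 5 labelled as starved and naive with no sugar. Both groups had gone without food. The trained flies then received an odor in an air stream, a pause, and a further odor together with sucrose, whereas the starved flies received neither odor, sugar nor training. The series also holds 5 heads taken 4 h after the same training and 5 heads of untrained flies with no starvation, which are used here to place the levels of the genes that changed. Training, odor, sugar intake, handling and the hour that passed all differ between the 2 groups and cannot be told apart by this comparison. Whether the flies could eat during that hour, and their strain and age, are not given in the sources used here. Each library held polyadenylated RNA of 1 head, and each head was a separate fly.

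A starved fly lives on stored fat. Triacylglycerol lipases release fatty acids, the carnitine shuttle brings them into mitochondria for oxidation, and gluconeogenic enzymes such as phosphoenolpyruvate carboxykinase help to hold up the blood sugar trehalose. Sugar is sensed inside cells by the paired transcription factors Mondo and bigmax, the fly counterparts of mammalian ChREBP and Mlx, which act partly through the zinc finger factors cabut and sugarbabe. In the brain, an odor paired with a nutritious sugar gives an appetitive memory whose long-lasting form needs new transcription, and neuronal firing itself switches on immediate early genes such as Hr38 and stripe. A head contains brain, eyes, muscle and a layer of fat body around the brain, so that metabolic, immune and neuronal transcripts are all read in the same library.

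Reads on genes ran from 36018275 to 56480389 in the starved heads and from 47897829 to 67790881 in the heads at 1 h. Each head was set against the others of its group at the 10501 genes tested, and a gene was counted where the head lay apart by Dixon's criterion. Starved replicate 3 lay apart at 356 genes (3.39%) and 1 h replicate 3 at 463 (4.41%), and the other 9 heads at 20 to 156 genes. In starved replicate 3 the low values included metabolic genes of large range. Pepck1, the main phosphoenolpyruvate carboxykinase, held 801, 1782, 5.00, 1015 and 1463 RPKM (reads per kilobase of gene, scaled to library size) in starved replicates 1 to 5. Its level in replicate 3 was below that of every head in the series, and Lsd-1, a fat body protein of lipid droplets, was likewise lowest there, with 57.7, 185, 2.44, 71.1 and 25.4 RPKM. All heads were kept in the main comparison. The count of genes that passed is also given without starved replicate 3 and without both replicates 3. Values of the function lists are given without these heads only where stated. The heads held transcripts of neurons, glia, photoreceptors, fat body, muscle and hemocytes, while 5 of 9 gut markers and 10 of 11 ovary markers averaged under 1 RPKM over all heads.

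Of the 10501 genes, 58 (0.552%) differed between heads at 1 h and starved heads with an adjusted p under 0.05 in limma on log2(RPKM + 1). Of these, 47 (0.448%) were higher at 1 h and 11 (0.105%) were lower. When every head was rescaled to the same 75th percentile, 45 were higher and 20 lower. With only the 2 groups in the fit 3 genes passed (CG16978, CG13255 and asRNA:CR45943). Most calls below, CG5966 and CG12116 included, thus rest on the spread shared over all 4 groups. A replicate block, added to the fit of all heads, left 9 genes (CG13255, asRNA:CR45943, cbt, whd, CG11777, Drat, BNIP3, Gbs-76A and Nepl4). Most calls, again CG5966 and CG12116 included, thus also rest on a fit that leaves out the replicate number. The 2 largest falls were those of the lipase gene CG5966 and the carnitine palmitoyltransferase gene whd, both of fat use. The higher genes took in the sugar-responsive transcription factor cbt. They also held single enzyme genes of coenzyme A (fbl), NADP (Nadk1a), glutathione (Gclm) and phospholipid synthesis (Pcyt1 and oys). Without both replicates 3, cbt and Gclm still passed, whereas fbl, Nadk1a, Pcyt1 and oys did not. The changes were large for some genes and small for others: 24 of the higher genes had a log2 fold change of at least 1, 4 of the lower genes one of -1 or less, and 30 a size under 1. All these counts are of genes and not of separate loci, since 8 pairs of the called genes had overlapping spans. The pair of whd and CG11777 was among the 4 lower genes just counted. In a library made from a whole head, fewer cells of a type and less RNA per cell cannot be told apart. The same heads that gave the calls also show how far the groups lay apart, as a description. At 47 of the 58 genes the 6 heads at 1 h did not overlap with the 5 starved heads, 39 of them higher and 8 lower, where 1.50% of all genes tested did so (1.10% higher and 0.400% lower). An exact two-sided permutation test over the 462 divisions of the 11 heads gave its smallest possible p, 0.0022, for 23 of the 58. It used the heads that had picked these genes and was not run over all genes tested, so it adds no support. Over the 10501 genes, the median difference was -0.0046 on the log2 scale, 48.5% were higher at 1 h, and 13.6% had an unadjusted p under 0.05.

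**Figure D1:**
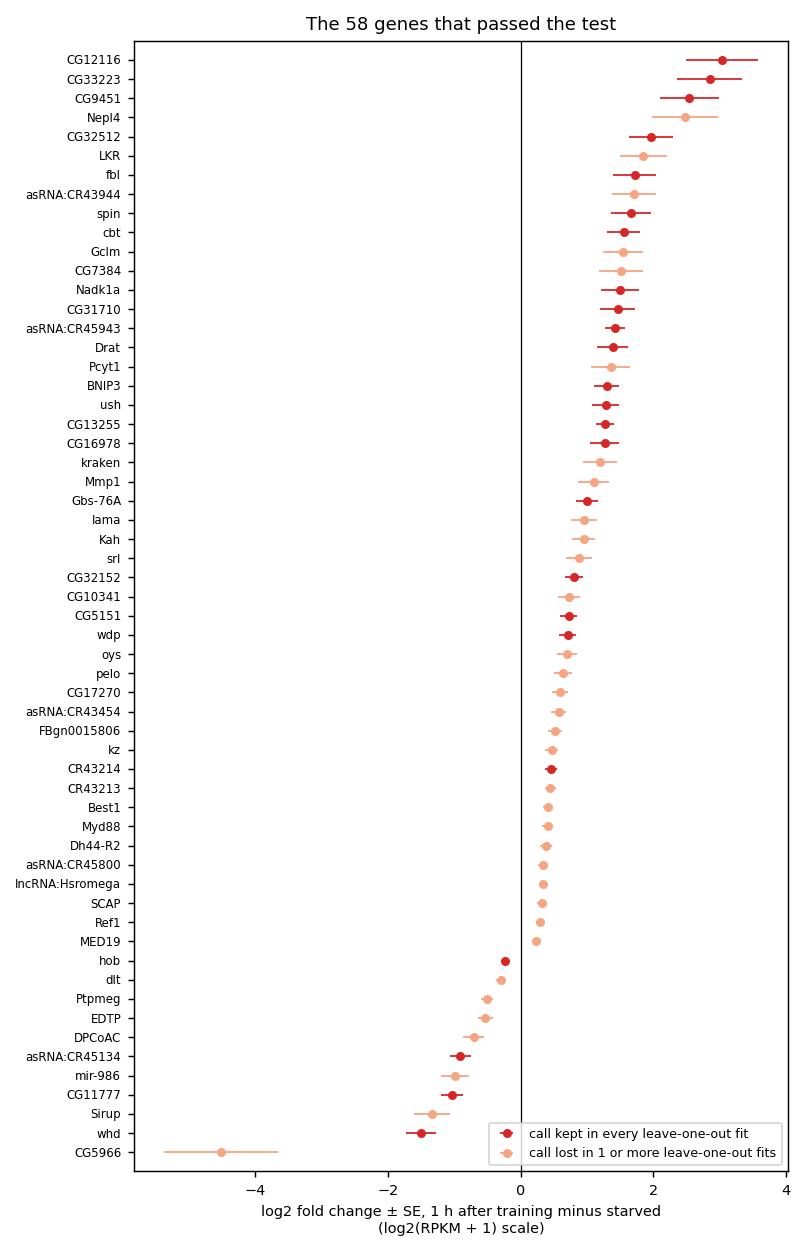
The log2 fold change (1 h after training minus starved, on the log2(RPKM + 1) scale, with its standard error) of the 58 genes that passed the test, 6 heads against 5. Red points mark the 24 genes that passed in every fit with 1 of the 11 heads left out, and the changes run from -4.52 for CG5966 to 3.04 for CG12116.

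Without starved replicate 3 the count was nearly the same, 57, but 39 of the 58 genes were kept and the balance moved, with 31 genes higher and 26 lower. Without both replicates 3, a choice made after the data were seen, 61 genes passed, 34 higher and 27 lower, and 32 of the 58 were kept. All 58 held their direction in these fits. Of the 47 higher genes, 26 were highest in 1 h replicate 5 and 20 were lowest in 1 h replicate 4. Among the starved heads, 22 of the 47 were lowest in replicate 3. Their rises are thus not independent of one another.

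The strongest fall was in fat use. CG5966 encodes a predicted triacylglycerol lipase of the pancreatic type. Starved replicates 1 to 5 held 57.2, 309, 1.35, 155 and 126 RPKM, and the 6 heads at 1 h held a lowest value of 0.607, a median of 1.54 and a highest of 3.38. The highest head at 1 h was thus below all starved heads except replicate 3, which lay within the range of the heads at 1 h. The log2 fold change was -4.52 ± 0.86 (SE, adjusted p = 0.0172). CG5966 passed in 8 of the 11 fits with a head left out, but not when the recovered reads were fitted with voom. Its log2 fold change was -5.70 without starved replicate 3. Untrained fed heads lay between, with 3.94 to 45.7 RPKM, and at 4 h the level stayed at 0.44 to 1.57 RPKM.

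The gene whd encodes carnitine palmitoyltransferase, the step that commits fatty acids to mitochondrial oxidation. It held 129, 198, 65.04, 138 and 112 RPKM in the starved heads and 33.6 to 57.8 at 1 h, with a median of 40.3. Every head at 1 h was below every starved head. The log2 fold change was -1.497 ± 0.23 (SE, adjusted p = 0.0071), a level 3.00-fold lower by the means, and it passed whichever head was left out. Here the level fell below that of fed flies too: untrained heads held 71.9 to 143 RPKM, and the difference from them was -1.20 on the log2 scale (adjusted p = 0.0062). Exons of whd overlap those of CG11777, which fell by 1.03 on the log2 scale, and of the antisense RNA asRNA:CR45134, which fell by 0.91. The libraries did not keep the strand, so these 3 results cannot be counted as separate.

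Other genes that fell act in mitochondria and in lipid or tyrosine phosphate signalling. Sirup, whose protein helps to assemble succinate dehydrogenase and which is named for its rise in starvation, held 251, 450, 407, 373 and 434 RPKM in starved heads and 70.8 to 251 at 1 h (median 152). Its log2 fold change was -1.34 ± 0.28 (SE, adjusted p = 0.0311). DPCoAC, the mitochondrial carrier of dephospho-coenzyme A, fell by 0.71 ± 0.16, from 25.5 to 42.6 RPKM in starved heads to 15.1 to 25.3. Of its 2265 exon bases, 1327 are shared with the neighbouring att-ORFB. EDTP, a phosphatase of the lipid PI3P that restrains autophagy, fell by 0.53 ± 0.12, and Ptpmeg, a protein tyrosine phosphatase, by 0.51 ± 0.09. The remaining falls were small (hob by 0.23 and dlt by 0.30) or rested on few reads, as for the microRNA locus mir-986 with 3 to 11 reads per head at 1 h and 8 to 37 in starved heads. With 1 head left out the call was lost in 9 of 11 fits for DPCoAC, in 8 for EDTP, in 6 for dlt, in 5 each for Sirup and mir-986, and in 1 for Ptpmeg.

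**Figure D2:**
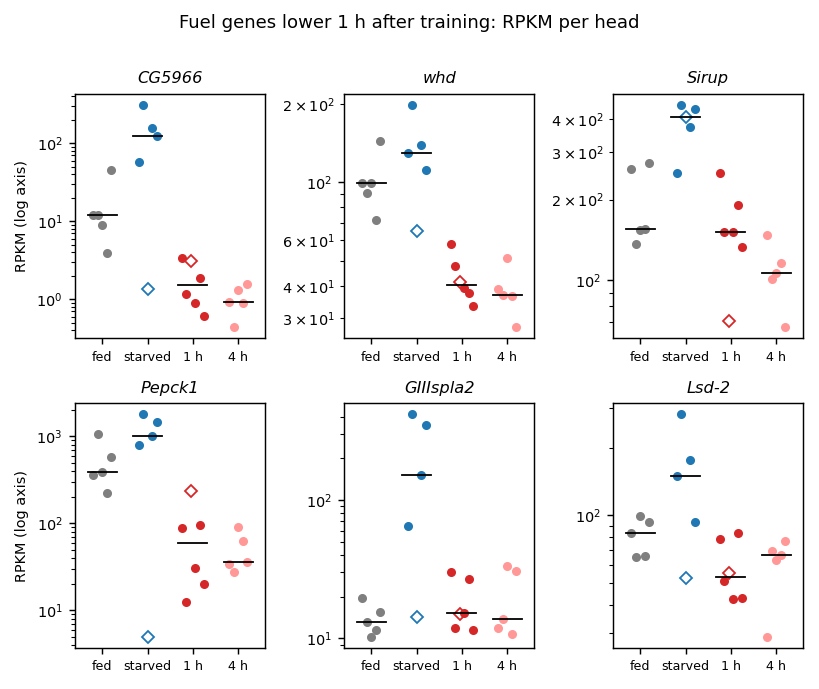
RPKM per head on a log axis for 6 fuel genes in fed untrained, starved, 1 h and 4 h heads, with a bar at each group's median and open diamonds for starved replicate 3 and 1 h replicate 3. CG5966, whd and Sirup passed the test with all heads. Pepck1, GIIIspla2 and Lsd-2 passed without starved replicate 3, whose open diamond lies at 5.00, 14.2 and 52.4 RPKM, far below the other starved heads for Pepck1.

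Starved replicate 3 decided several calls among fuel genes. Pepck1 ran from 12.4 to 237 RPKM at 1 h (median 59.4) against 801 to 1782 in the other 4 starved heads, yet with all heads its log2 fold change of -3.03 ± 1.12 had an adjusted p of 0.239. Without starved replicate 3 it was -4.56 ± 0.64 with an adjusted p of 0.0018. The 18 genes that passed without that head but not with all heads were 17 lower and 1 higher. Among them, and chosen after their values were seen, were GIIIspla2, a secreted phospholipase A2, at -3.43 ± 0.45 (adjusted p = 0.00097), the lipid droplet gene Lsd-2 at -1.495 ± 0.30 (0.0239), rost at -2.93 ± 0.52 (0.011) and the amino acid transporter gene path at -0.82 ± 0.13 (0.0068). CG45087 shares all its reads with Pepck1 and gave the same values.

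In the list of lipase and fatty acid oxidation genes, which does not hold CG5966, whd was the only member of 20 that passed, and 15 of 20 were lower at 1 h. The median log2 fold change was -0.44, and it was -0.85 without starved replicate 3. Mcad, the medium-chain acyl-CoA dehydrogenase, stood at -1.31 ± 0.55 (adjusted p = 0.303), and the main fat lipase bmm at -1.08 ± 0.52 (0.369). Most exon bases of Mcad, 1353 of 1461, are shared with CG7457. Heads at 1 h spread widely for both, with 42.0 to 588 RPKM for Mcad and 15.3 to 164 for bmm, and overlapped with the starved heads. Muscle markers moved the same way: 6 of 6 measured were lower at 1 h, with a median of -0.66. None passed the test, but 5 of the 6 had an unadjusted p under 0.05, against 13.6% of all genes. The summed level of the muscle markers was 370 to 1301 RPKM in starved heads and 267 to 807 at 1 h. Their part in the lower fuel genes was not tested. Of the glycolytic genes 14 of 17 were lower, with a median of -0.28, and 0 passed (2 at an unadjusted p under 0.05, a share no higher than the 13.6% of all genes). In the list for gluconeogenesis, trehalose and glycogen 0 of 17 passed and the median was -0.04. Tps1, the trehalose synthase, had a log2 fold change of 0.94 (adjusted p = 0.659) that became -0.28 without starved replicate 3, where it held 5.22 RPKM against 235 to 809.

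Among the transcription factor genes that passed, cbt (cabut), a zinc finger repressor that Mondo and bigmax switch on after a sugar meal, had the largest rise. The starved heads held 25.2, 11.9, 16.6, 17.2 and 9.24 RPKM and the heads at 1 h 31.2 to 79.2, with a median of 41.1. There was no overlap, and the log2 fold change was 1.56 ± 0.25 (SE, adjusted p = 0.0090). It was also above the fed level of 19.3 to 31.8 RPKM, with a difference of 1.05 (adjusted p = 0.0173), and heads at 4 h still held 37.3 to 59.1. The gene lies at 2L:476446-479688 on the minus strand (BDGP6.54), within the span of ush on the plus strand. The count of that neighbour, u-shaped, a cofactor of GATA factors, was also called higher (1.28 ± 0.21), but it followed the reads of cbt. With the reads of cbt taken off, ush had a mean of 17.3 RPM (reads scaled to the total on genes) left in starved heads (14.005 to 21.6) and 19.8 at 1 h (18.0 to 21.7), so it is not counted as a separate rise.

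Smaller rises were seen for Kah, a zinc finger factor of the Snail group (0.95 ± 0.18, adjusted p = 0.0153), for srl or spargel, the fly PGC-1 homologue that promotes mitochondrial gene expression (0.88 ± 0.20, adjusted p = 0.0499), and for the Mediator subunit gene MED19 (0.23 ± 0.05, adjusted p = 0.0485). Kah went from 3.15 to 4.34 RPKM in starved heads to 5.05 to 12.5 at 1 h. With 1 head left out, the call was lost in 10 of 11 fits for srl, in 9 for MED19 and in 1 for Kah.

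In the list of 17 genes of the sugar-sensing Mondo network, cbt was the only member that passed and 12 were higher at 1 h, with a median log2 fold change of 0.43. Sugarbabe (sug), a zinc finger factor of fat body that follows sugar intake, held 24.2, 14.9, 0.86, 2.23 and 1.03 RPKM in starved heads and 16.4 to 67.0 at 1 h (median 30.9). Its log2 fold change of 2.59 ± 0.59 came close to the threshold with an adjusted p of 0.0537. The activin-like ligand gene daw stood at 1.59 ± 0.39 (adjusted p = 0.0741) and ATPCL, the citrate lyase that feeds fatty acid synthesis, at 1.35 ± 0.39 (0.128). The heads of both groups overlapped for these 3 genes. Without starved replicate 3, Pepck1 passed beside cbt and the list's median was 0.13.

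Of 14 activity-regulated and immediate early genes, 13 were higher at 1 h, with a median of 0.45, and cbt alone passed. CrebA (0.92 ± 0.23, adjusted p = 0.0791), Hr38 (0.62 ± 0.15, 0.0657) and Atf3 (0.55 ± 0.13, 0.0643) did not. Hr38, a nuclear receptor that marks recent neuronal firing, held 4.41 to 6.15 RPKM in starved heads and 5.50 to 10.5 at 1 h. Without both replicates 3 it passed as well, at 0.70 (adjusted p = 0.0398). In contrast, stripe (sr) differed little, at 0.09 ± 0.10 (adjusted p = 0.71), with 3.04 to 4.41 and 3.59 to 4.74 RPKM. Ets21C, at 0.68 (adjusted p = 0.225), had 15.6 RPKM in 1 h replicate 3 against 3.49 to 5.71 in the other 5 heads. In that head Hsc70-3, the endoplasmic reticulum chaperone, reached 1008 RPKM against 50.9 to 173 in the other heads at 1 h.

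**Figure D3:**
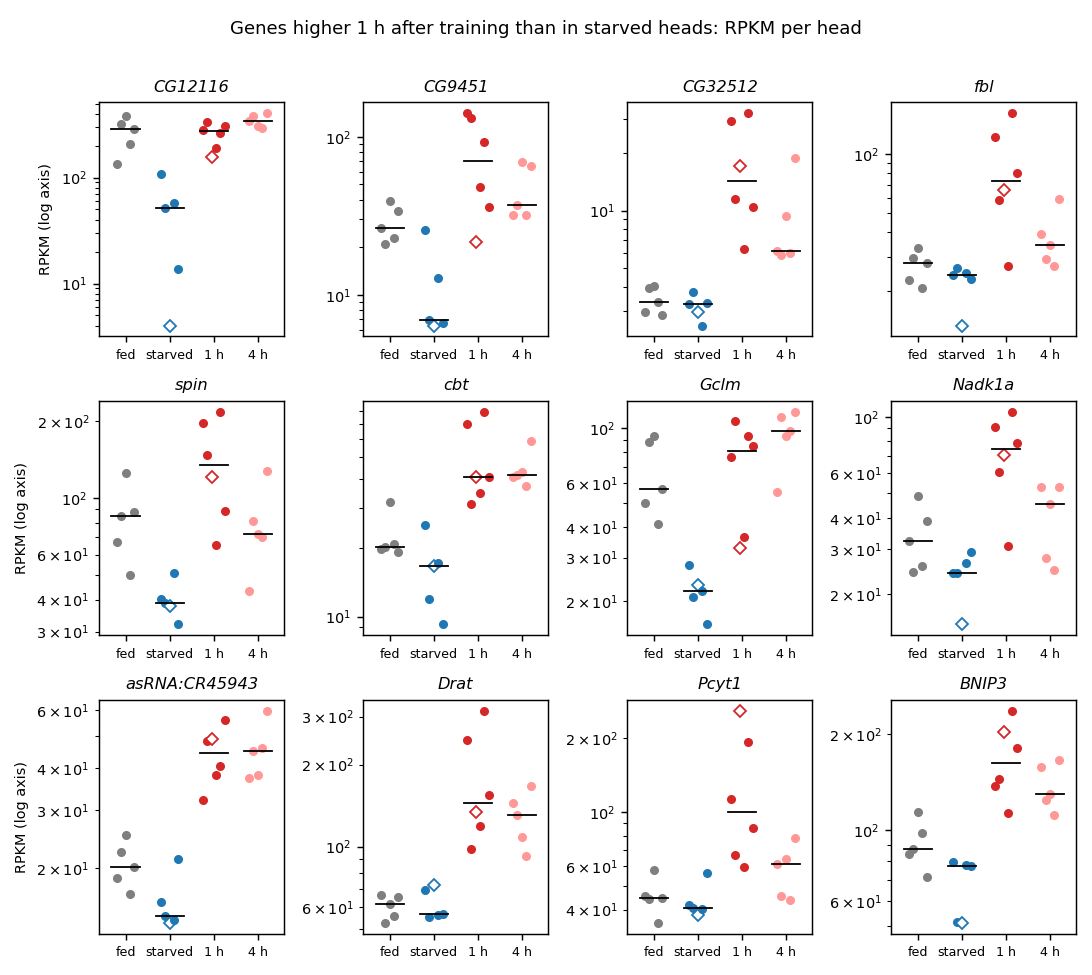
RPKM per head on a log axis for 12 genes that were higher 1 h after training than in starved heads, in fed untrained, starved, 1 h and 4 h heads, with a bar at each group's median and open diamonds for starved replicate 3 and 1 h replicate 3. For CG12116 and Gclm the heads at 1 h lie in or near the range of fed heads, and for CG32512, fbl, Drat and Pcyt1 their median lies above every fed head.

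Enzymes of cofactor synthesis were among the genes that rose, a grouping made after the values were seen. The gene fbl encodes fumble, the pantothenate kinase that starts coenzyme A synthesis. It held 24.4, 26.5, 13.4, 24.8 and 23.1 RPKM in the starved heads and 26.8 to 162 at 1 h, with a median of 73.2. The lowest head at 1 h lay just above the highest starved head. The log2 fold change was 1.72 ± 0.33 (SE, adjusted p = 0.0172), 3.84-fold by the means. Its exons share 1463 of 3513 bases with asRNA:CR43944, which showed nearly the same change (1.71) and is not a separate result. Nadk1a, a NAD kinase that makes NADP, rose by 1.502 ± 0.28 (adjusted p = 0.0172), from 24.3, 24.3, 15.2, 26.6 and 29.4 RPKM to 30.9 to 104 (median 74.7).

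Single genes of lipid and glycogen handling also rose. Pcyt1, the enzyme that sets the pace of phosphatidylcholine synthesis, held 41.9, 40.8, 38.1, 40.1 and 56.4 RPKM in starved heads and 59.7 to 259 at 1 h, with a median of 99.8. Its log2 fold change was 1.36 ± 0.30 (adjusted p = 0.0468), and the call was lost in 7 of 11 fits with a head left out. The lysophospholipid acyltransferase gene oys rose by 0.70 ± 0.15 (adjusted p = 0.0403, lost in 7 fits). SCAP, which escorts the lipid-gene activator SREBP to where it is cleaved, rose by 0.32 ± 0.07 (adjusted p = 0.0485, lost in 6 fits), from 20.9 to 26.1 RPKM to 26.7 to 33.9 with no overlap. Gbs-76A, a subunit that brings protein phosphatase 1 to glycogen, rose by 1.00 ± 0.16 (adjusted p = 0.0090), and its starved heads lay tightly between 13.2 and 16.0 RPKM against 21.1 to 41.0 at 1 h.

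In the list of fatty acid synthesis and fat storage SCAP was the only member of 18 that passed, with a median of 0.34 and 12 higher. Lsd-1 stood at 2.51 ± 0.76 (adjusted p = 0.147) and the acyl-CoA synthetase gene bgm at 1.52 ± 0.73 (0.369), both with starved replicate 3 at the bottom. The list's median was 0.08 without that head, and Lsd-2 was then its only member that passed, and lower. Fat body markers, which include Lsd-1, ranged from 151 to 11740 RPKM in sum over starved heads and from 758 to 21653 at 1 h, with 6 of 9 higher. Their part in the lipid genes was not tested.

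CG12116, placed here with the pteridine genes, had the largest log2 fold change of the 47 higher genes. The starved heads held 109, 52.1, 4.01, 57.2 and 13.7 RPKM and the heads at 1 h 155 to 332, with a median of 273. There was no overlap, and the log2 fold change was 3.04 ± 0.55 (SE, adjusted p = 0.0123), or 2.39 at the least when 1 head was left out. Heads at 1 h were at the fed level, with a difference of -0.02 (adjusted p = 0.986), and fed heads held 134 to 381 RPKM. CG33223, whose span encloses CG12116 on X, gave 2.85 from nearly the same reads (8301 against 8010 in starved replicate 1), so the rise counts once. The other 14 pteridine genes tested did not pass, and the list's median was -0.07.

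Gclm, the modifier subunit of glutamate-cysteine ligase in glutathione synthesis, held 28.0, 20.8, 23.4, 21.9 and 16.1 RPKM in starved heads and 32.8 to 107 at 1 h (median 80.7). The log2 fold change was 1.55 ± 0.30 (SE, adjusted p = 0.0203) with no overlap, and the call was lost in 5 of 11 fits with a head left out. As for CG12116, the level at 1 h was near that of fed heads (0.06, adjusted p = 0.911), which held 40.9 to 93.5 RPKM. It was the only member that passed of 36 glutathione and antioxidant genes, whose median was -0.14, and of 30 cAMP and memory genes, whose median was -0.03. Tig, the integrin ligand tiggrin, stood at 0.81 ± 0.28 (adjusted p = 0.213) with overlapping heads.

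LKR, the lysine ketoglutarate reductase that opens lysine breakdown, rose by 1.85 ± 0.36 (adjusted p = 0.0172), from 7.01, 8.43, 2.30, 11.4 and 5.62 RPKM to 13.1 to 63.4 (median 22.3). Fed heads held 12.9 to 34.9. The lysosomal membrane transporter gene spin (spinster) held 40.1, 38.8, 37.9, 50.7 and 32.01 RPKM in starved heads and 65.1 to 217 at 1 h, with a median of 134 and a log2 fold change of 1.67 ± 0.30 (adjusted p = 0.0123). BNIP3, a receptor for the removal of mitochondria, rose by 1.299 ± 0.19 (adjusted p = 0.0041), and its starved heads held 51.1 to 79.6 RPKM against 113 to 237. Drat, a protein with an alcohol dehydrogenase domain, rose by 1.39 ± 0.23 (adjusted p = 0.0103), from 55.1 to 72.1 RPKM to 98.1 to 315. Heads did not overlap for any of these 4 genes, and the calls of spin, BNIP3 and Drat held whichever head was left out. In the list of 29 TOR and autophagy genes 0 passed (3 at an unadjusted p under 0.05), and rictor, a subunit of TOR complex 2, came closest at 0.52 ± 0.12 (adjusted p = 0.0657).

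The lowest adjusted p of all, 1.4e-04, belonged to asRNA:CR45943 at 1.42 ± 0.15, which rose from 15.8, 14.3, 13.6, 13.9 and 21.2 RPKM to 32.2 to 55.9. All 388 of its bases lie within exons of CG13255, which rose by 1.27 ± 0.14 (adjusted p = 1.6e-04). The libraries did not keep the strand, so reads of the antisense RNA cannot be told from those of CG13255, and the 2 calls are not separate. CG13255 with the reads of asRNA:CR45943 taken off had a mean of 3.09 RPM left in starved heads (2.41 to 3.55) and 7.24 at 1 h (5.03 to 9.22). No role was sure enough to state for either. CG16978 rose by 1.27 ± 0.22, from 15.4 to 31.1 RPKM to 49.4 to 65.05. CG9451 and CG32512 rose by 2.54 ± 0.44 and 1.97 ± 0.33 and passed in every fit with a head left out. For CG32512 the starved heads were tightly grouped at 2.52 to 3.76 RPKM and the heads at 1 h spread from 6.29 to 32.1. The metallopeptidase gene Nepl4 rose by 2.48 ± 0.50 and varied among starved heads, from 0.293 to 9.25 RPKM. CG7384, CG31710 and the hydrolase gene kraken had log2 fold changes of 1.52, 1.47 and 1.197, and the span of CG31710 lies inside that of pelo. With 1 head left out the call was lost in 8 fits for CG7384, in 7 for kraken and in 5 for Nepl4. The ribosome rescue gene pelo was called higher (0.64), but with the reads of CG31710 taken off it had a mean of 27.2 RPM left in starved heads and 27.9 at 1 h, so it is not counted as a separate rise.

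The other genes that rose belong to the cell surface, signalling and RNA. They were Mmp1, a matrix metalloproteinase (1.10 ± 0.23, adjusted p = 0.0349), lama (0.96, with 3546 of 4046 exon bases shared with CG46456), the transmembrane proteoglycan gene wdp (0.71), the chloride channel gene Best1 (0.41), the Toll adaptor gene Myd88 (0.41 ± 0.09, adjusted p = 0.0371) and Dh44-R2, a receptor of the diuretic hormone 44 that nutritive sugar releases (0.38 ± 0.09, adjusted p = 0.0499). Genes of RNA handling were kz, a helicase of ribosome assembly (0.47), the RNA export factor gene Ref1 (0.29) and the stress-responsive lncRNA:Hsromega (0.34). Dh44-R2 and Ref1 each lost their call in 9 or more of 11 fits with a head left out. In the same fits kz lost its call in 8, Mmp1 and lama in 6 each and Myd88 in 5. The rest of the 47 were CG32152 and CG5151, which share exons (0.81 and 0.73), CG10341 (0.73), CG17270 (0.59), FBgn0015806 (0.52), the noncoding asRNA:CR43454 (0.57) and asRNA:CR45800 (0.34), and the adjacent CR43213 and CR43214 (0.45 and 0.46), which lie 202 bases apart. Of these, CG10341 lost its call in 9 fits, asRNA:CR45800 in 8, FBgn0015806 in 7 and CG17270 in 6.

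**Figure D4:**
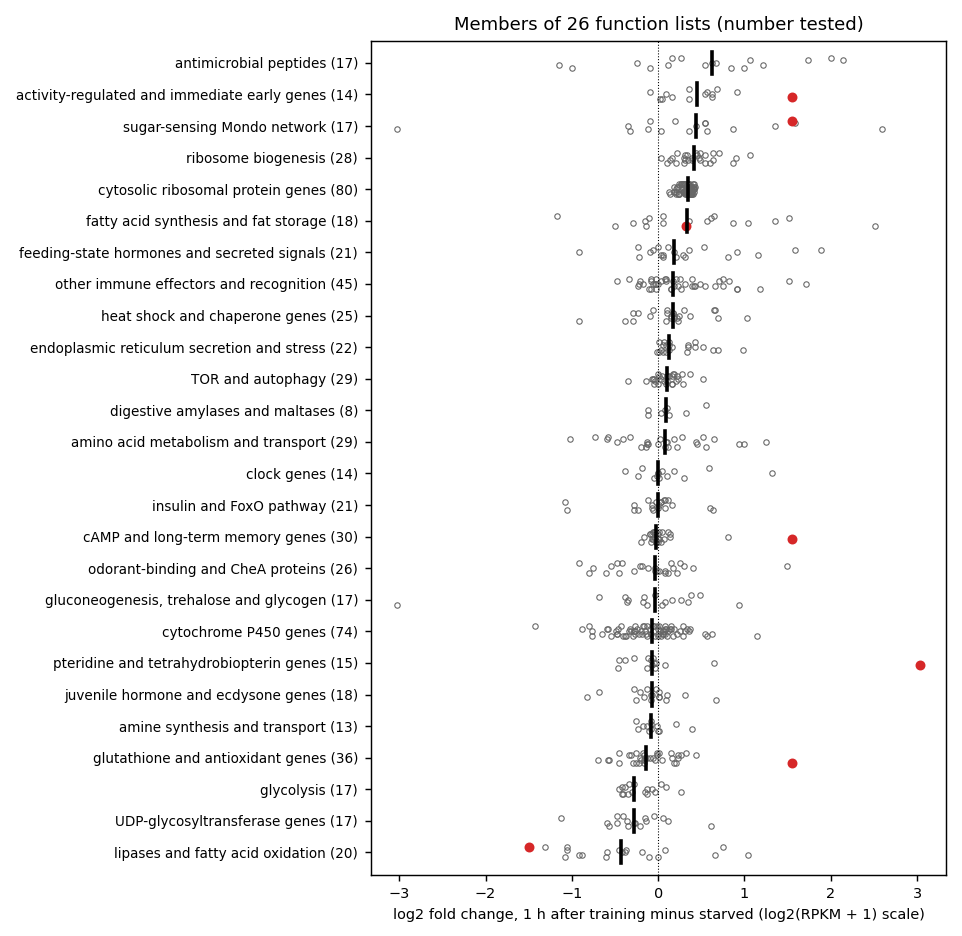
The log2 fold change (1 h after training minus starved, log2(RPKM + 1) scale) of every tested member of 26 function lists, with the number tested in brackets. Red points passed the test, open points did not, and the black bar is the list's median, which runs from -0.44 for lipases and fatty acid oxidation to 0.62 for antimicrobial peptides.

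Of 28 ribosome biogenesis genes 28 were higher at 1 h, with a median of 0.42, 20 at an unadjusted p under 0.05 (13.6% of all genes) and 0 past the adjusted threshold in limma (lowest adjusted p 0.0518). Their summed level was 403 to 772 RPKM in starved heads and 707 to 908 at 1 h, and the groups overlapped at every member. The list's values without starved replicate 3 are not given here, so its dependence on that head is not shown. Nop60B, the pseudouridine synthase dyskerin, stood at 1.06 ± 0.32 (adjusted p = 0.144), with 2.67 to 8.63 RPKM in starved heads and 8.03 to 12.8 at 1 h, and nop5 at 0.90 ± 0.30 (0.189). When starved replicate 1 was left out, 7 of the 28 passed, in the fit with the most calls over all genes, 139 against 58 with every head. Of 80 cytosolic ribosomal protein genes 80 were higher, with a median of 0.34 and 0 past the threshold (6 at an unadjusted p under 0.05), but 72 of 80 with a median of 0.10 without starved replicate 3. RpLP1, a protein of the ribosomal stalk, held 1269.7, 1048, 342, 795 and 1078 RPKM in the starved heads and 1041 to 1235 at 1 h, and starved replicate 3 alone lay far below the rest. All 28 and all 80 were also higher when heads were rescaled to the same 75th percentile or the same total RPKM.

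No antimicrobial peptide passed. Of 17 tested, 13 were higher at 1 h with a median of 0.62, and 0 had an unadjusted p under 0.05. DptB, the diptericin B peptide, held 13.02, 26.7, 38.2, 263 and 16.8 RPKM in the starved heads and 18.6 to 208 at 1 h. The groups overlapped fully and the log2 fold change was 0.84 ± 1.11 (adjusted p = 0.772). AttB, the attacin B peptide, held 4.39 to 28.2 RPKM in starved heads, and of the heads at 1 h replicates 3, 4, 5 and 6 held 177, 51.4, 119 and 253 while replicates 1 and 2 held 23.9 and 10.3. Its log2 fold change was 2.00 ± 1.05 (adjusted p = 0.412), and that of AttA was 2.145 ± 1.16 (0.429). GNBP-like3 stood at 0.91 ± 0.86 (adjusted p = 0.668), with 391 RPKM in 1 h replicate 6 and 9.09 to 111 in the other 10 heads. Among 45 other immune genes 0 passed (4 at an unadjusted p under 0.05). PGRP-SD, a recognition protein for bacterial peptidoglycan, came closest at 1.71 ± 0.44 (adjusted p = 0.0832), and its heads did not overlap, at 12.3 to 58.7 and 60.2 to 157 RPKM.

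The remaining lists held no gene that passed. Among 14 clock genes the median was 0.003, and the repressor gene cwo, at 1.32 ± 0.35 (adjusted p = 0.0978), had 11.01 to 16.6 RPKM in starved heads, while of the heads at 1 h replicates 1, 2, 3 and 5 held 36.6 to 79.5 and replicates 4 and 6 held 13.3 and 16.6. The 21 feeding hormone and secreted signal genes had a median of 0.19, and fit, a satiety peptide of female heads, stood at 1.89 ± 0.81 (adjusted p = 0.309). The 22 genes of endoplasmic reticulum secretion had a median of 0.12 with 21 higher, but 9 higher without both replicates 3. Medians of the insulin and FoxO, heat shock, amino acid, amine, hormone, odorant-binding, cytochrome P450 and amylase lists lay between -0.09 and 0.17, and that of the 17 UDP-glycosyltransferase genes was -0.28 with 14 lower. These 12 lists gave 0 calls in limma, with between 0 and 13 members of each at an unadjusted p under 0.05.

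The genes that changed were then placed against the other groups, with the caution that the heads at 1 h enter each of these comparisons. Of the 47 higher genes, 27 were also above the fed untrained heads and 20 did not differ from them by the test, in a comparison that called 943 genes (8.98%), 539 of them higher at 1 h (5.13%) and 404 lower (3.85%). Rescaling every head to the same total RPKM moved the median of all genes in that comparison to 0.25 and gave 2057 higher and 105 lower. Drat, fbl, Pcyt1, CG32512, BNIP3 and cbt belonged to the 27, with differences from fed heads of 1.43, 1.45, 1.298, 1.89, 0.87 and 1.05 on the log2 scale. CG12116, Gclm, LKR, spin and CG7384 belonged to the 20, with 0.19 or less for all but spin (0.68, adjusted p = 0.144). Of the 11 lower genes, whd, CG11777, asRNA:CR45134 and hob were also below the fed level and 7 did not differ by the test.

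At 4 h none of the 58 genes passed the test against 1 h, in a comparison that called 9 genes in all (0.0857%), 3 higher (0.0286%) and 6 lower (0.0571%). In it 33 of the 47 higher genes had a lower level at 4 h, and the median difference of all genes was 3.1e-04 on the log2 scale. The 47 were picked for high values in these heads at 1 h, so the count of 33 cannot show a return. Among the 33, LKR, fbl, CG31710 and Pcyt1 had differences with log2 values of -1.15, -1.01, -0.98 and -0.95 and adjusted p from 0.126 to 0.207. The level of fbl at 4 h was 27.0 to 59.0 RPKM and that of Pcyt1 43.9 to 78.3, both overlapping with the heads at 1 h and with fed heads. CG12116 and Gclm instead held 296 to 406 and 55.1 to 116 RPKM at 4 h. The lowest adjusted p of the 9 calls was that of Hr38, which went from 5.50 to 10.5 RPKM at 1 h to 1.24 to 3.26 at 4 h, a log2 fold change of -1.60 ± 0.15 (adjusted p = 2.0e-05), below the 3.82 to 4.73 of fed heads. The other immediate early gene called was sr, at -0.78 ± 0.10 (adjusted p = 8.4e-04), and the clock gene per rose by 0.73 ± 0.11 (adjusted p = 0.0053). These 3 genes were named after their values were seen. The hour of collection was not given for the groups and its part in these values cannot be told apart from the time since training.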

How the data were processed

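The authors deposited RPKM values of 17559 genes in 21 heads, made from uniquely mapped reads of unstranded polyA libraries. CASAVA 1.8.2, TopHat2 2.0.13, dm6 and edgeR 3.18.1 are named in the submitters' processing notes, and the Methods also name an older pipeline. All 17212 genes above 0 gave whole reads (within 0.01 of a whole number). Of the identifiers, 17253 matched current symbols and 5 were named from tables of the study. Heads were grouped by their labels, and 0 columns were left unused. The 10501 genes that reached 1 RPKM in 5 or more heads were analysed on log2(RPKM + 1), which understates changes of low genes, with limma 3.58.1 in R 4.3.3 (lmFit, trended eBayes, all 21 heads, Benjamini-Hochberg adjustment, threshold 0.05). The fit was also run on simulated reads with the same relative spread for every gene and no head set apart. That run cannot show how the fit does with heads such as starved replicate 3. Exact two-sided permutation tests covered single genes. Intervals reflect spread between heads, and reads without molecular identifiers are not independent molecules. Up to 20 higher and 11 lower called genes, every called list member, the members with the largest changes and genes the study names were named. Members, lists and tests were chosen with earlier results of these data known. Promoter motifs were not analysed here. Python 3.11.15 was used for tables and figures.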

Additional observations from a re-analysis of the deposited data

Results flagged for a closer look

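Each named gene's heads were examined within the starved and the 1 h group, 220 groups in all, and chance alone would mark about 5% of them. In 16 groups a head lay far from the rest. Starved replicate 3 was the low head for fbl (13.4 RPKM against 23.1 to 26.5 in the other 4), for the overlapping asRNA:CR43944 (19.5), for Pepck1 (5.00 against 801 to 1782), for Tps1 (5.22), for bgm (2.36 against 81.1 to 136) and for v, the tryptophan oxygenase vermilion (1.12 against 36.9 to 71.0). Other starved heads that lay high were replicate 5 for Pcyt1 (56.4) and CG13255 (8.78), replicate 2 for the juvenile hormone epoxide hydrolase genes Jheh1 (97.1) and Jheh2 (106), and replicate 4 for Cyp304a1 (8.84). At 1 h, replicate 3 was high for Ets21C (15.6) and low for v (20.3 against 42.4 to 52.7), replicate 4 was low for CR43213 (2.04), replicate 5 high for Atg14 (20.99) and replicate 1 high for Cyp4e3 (182 against 13.4 to 22.3). No cause of these values was tested.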

How the results depend on the processing

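The count of 58 genes at 1 h against starved heads was 34 with no filter on low values, 157 with sample quality weights, 3 when only the 2 groups compared were fitted (CG16978, CG13255 and asRNA:CR45943) and 9 with a replicate block. Leaving out 1 head gave 30 to 139, the highest without starved replicate 1 (139, of which 57 of the 58 were kept) and the lowest without 1 h replicate 5 (30), starved replicate 2 (31) and starved replicates 4 or 5 (32 each). Every one of the 58 kept its direction wherever it was tested. Same-numbered starved and 1 h heads, which come from different flies, correlated at -0.11 to 0.28 in their deviations from the group means. For replicates 3 and 4 the best match was the head of the same number (0.27 and 0.13), and for replicates 1, 2 and 5 another head. The labels do not say whether same-numbered heads were handled together, so this check cannot decide whether the numbers pair the heads. For 4 h against 1 h the count of 9 was 25 after rescaling to the 75th percentile (18 higher and 7 lower), 4 with the same total RPKM, 466 with quality weights, 16 with voom on recovered reads, 15 with only the 2 groups, 30 with the replicate block and 4 (without 4 h replicate 5) to 15 (without 1 h replicate 6) with 1 head left out. For 1 h against fed heads the count of 943 was 2162 with the same total RPKM, 1679 with quality weights, 131 with only the 2 groups and 278 (without untrained replicate 6) to 1655 (without untrained replicate 1) with 1 head left out, and 326 to 523 without 1 h replicate 5 or 3 or untrained replicate 2 or 3. Directions turned for genes that had not passed: with quality weights DptB (-0.15), Hsc70-3 (-0.0011) and Cyp304a1 (-0.45), without starved replicate 3 Tps1 (-0.28, and up to 1.48 without another head) and v (-0.27, and up to 1.00), and without both replicates 3 Tps1 (-0.097), v (-0.072), Hsc70-3 (-0.024) and Gnmt (-0.19). The causes were not tested. With 5 and 6 single heads, only differences larger than the spread between flies could be detected.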
